A study of Mus musculus with 10 samples.

Results

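The matrix metalloproteinases (Mmp), the tissue inhibitors of metalloproteinases (Timp), the Adamts proteases with their Adamtsl relatives, and the lysyl oxidases (Lox) were examined in interscapular brown adipose tissue (iBAT) of mice with a knockout of cardiolipin synthase in adipocytes. These genes were taken by symbol from the deposited expression table, and the families were chosen with earlier results of these data known. Of 15075 genes in the table, 49 belong to these families: 17 Mmp, 4 Timp, 18 Adamts, 5 Adamtsl and 5 Lox genes. In 26 of them the mean reached 10 normalized reads per kb in at least 1 group, and 23 stayed under 10 in both groups.

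RNA came from 5 Control mice and 5 AdCKO mice, all C57BL/6, 20 weeks old and kept at room temperature. Each mouse gave 1 library. The AdCKO genotype joins Adipoq-Cre with 2 floxed alleles of Crls1, the gene of cardiolipin synthase. Control mice carry the same floxed alleles without Cre, and the sample labels call them wild type. Adipoq-Cre is active in adipocytes, so the vessels, fibroblasts, immune cells and nerves of the same tissue keep Crls1. The values are exon reads per kb of counted exon after the authors' normalization, so they can be compared between genes as well as between libraries. Their spread at low levels is smaller than counting whole reads allows. Among the 3327 genes with between 3 and 30 normalized reads per Control library, the median of the variance over the mean was 0.146, where counting alone gives 1. Among the 4149 genes with over 300 reads it was 5.38. Low values thus vary less between libraries than counted reads would, and the transformation behind this is not given in the sources used here. Whether it also alters the differences of low genes between the groups was not tested. Of the members tested, 5 had under 30 normalized reads in Control (Mmp3, Mmp12, Mmp23, Timp1 and Adamtsl4). Crls1 itself was at 1291, 927, 813, 1101 and 1169.8 normalized reads per kb in the Control libraries and at 193, 195, 249, 208 and 242 in the AdCKO libraries, which leaves 20.5% of the Control mean in AdCKO.

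The extracellular matrix of fat is a mesh of collagens, elastic fibres and proteoglycans that is laid down mainly by fibroblasts and adipocytes. Matrix metalloproteinases are zinc enzymes that cut these proteins, some of them free in the matrix and some anchored in the cell membrane, and the Timp proteins bind and block their active site. Adamts enzymes are secreted relatives that trim procollagens and cut proteoglycans, whereas Adamtsl proteins share their accessory domains but have no protease domain. Lysyl oxidases oxidize lysines of collagen and elastin, and this step crosslinks the fibres.

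In AdCKO iBAT, 19 of the 26 members tested were higher, 2 were lower (Lox and Timp4) and 5 were not called (Adamts1, Adamts9, Adamts10, Mmp15 and Mmp19). A call is an adjusted p under 0.01 from limma, fitted on log2(value + 1) over all 11244 genes with a mean of at least 10 in 1 of the groups. Over all tested genes, 53.6% were called, with 25.6% higher and 28.0% lower. The median log2 fold change was 1.15 for the members tested and -0.01 for all genes tested. Of the 26 members, 17 had every AdCKO library above every Control library and 2 had every AdCKO library below. Each of these 19 had p = 0.0079 when group labels were permuted (exact, two-sided, difference of means), which is the smallest value possible with 5 mice against 5. Among all tested genes the groups did not overlap for 50.9%, and for 24.5% every AdCKO library lay above. In bulk tissue, fewer or more cells of a type cannot be told apart from less or more RNA per cell. The members tested are not an even sample of the families, because 8 of them (Mmp3, Mmp12, Timp1, Adamts2, Adamts12, Adamts15, Adamtsl4 and Loxl3) reached a mean of 10 in AdCKO only and so had to be higher there. All 8 are among the 17 with every AdCKO library above every Control library. Of the other 18, which reached the minimum in both groups, 11 were higher, 2 lower and 5 not called. In 9 of these 18 every AdCKO library lay above, in 2 every AdCKO library lay below, and in 7 the groups overlapped. With no filter on low values, 28 of all 49 members were higher and 2 lower, against 24.7% and 21.6% of the 15075 genes. The median log2 fold change was then 0.52 for the 49 members, in place of 1.15 for the 26, and 0.03 for all genes.

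**Figure D1:**
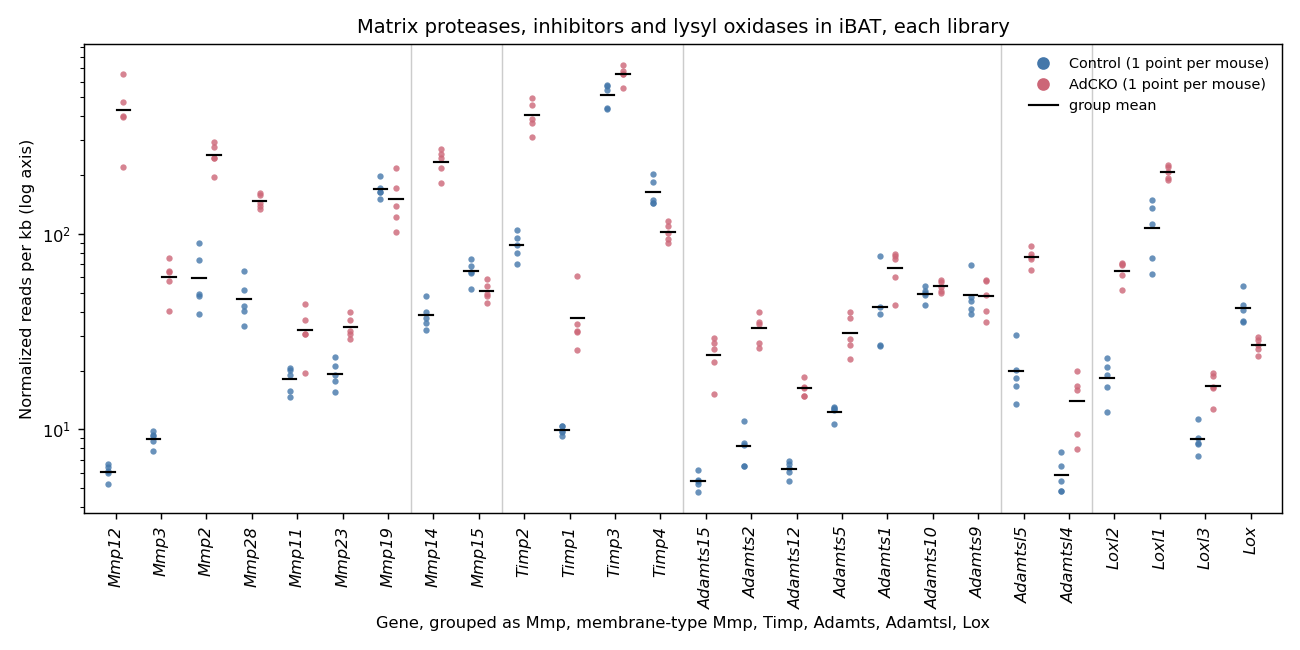
Normalized reads per kb (log axis) of the 26 members tested, with 1 point per mouse for 5 Control and 5 AdCKO libraries and a line at each group mean, ordered by family. Mmp12 went from the bottom of the plot in Control to the level of Timp2 in AdCKO, whereas Timp4 and Lox sit lower in every AdCKO library.

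Mmp12, the macrophage elastase, showed the highest fold change of all 49 members. It was at 6.43, 6.12, 6.62, 5.24 and 5.98 normalized reads per kb in the Control libraries and at 220.0, 474, 402, 657 and 395 in the AdCKO libraries. The lowest AdCKO library, AdCKO 1, was far above every Control library, and the AdCKO libraries themselves spanned a wide range. The means were 6.08 ± 0.531 and 429.8 ± 158 (SD, n = 5 each), a ratio of 70.7, and limma gave a log2 difference of 5.85 ± 0.22 (SE, adjusted p = 2.16e-09). By level, Mmp12 went from rank 26 of the 49 members in Control to rank 2 in AdCKO.

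Mmp14 is the membrane-type metalloproteinase that cuts fibrillar collagen at the cell surface and activates the proform of Mmp2. Its values were 32.1, 39.8, 48.1, 37.3 and 34.8 in Control and 244, 255, 216, 271 and 181 in AdCKO, which limma estimated as 2.57 ± 0.13 (SE) on the log2 scale (adjusted p = 1.63e-08). Its substrate Mmp2, the gelatinase that degrades basement membrane and denatured collagen, rose 4.22-fold, from 38.9 to 89.6 in the Control libraries to 195 to 295 in the AdCKO libraries, which limma estimated as 2.11 ± 0.20 (SE) on the log2 scale (adjusted p = 2.07e-06). The groups did not overlap for either gene. Timp2, which besides its inhibitory role bridges Mmp14 and the proform of Mmp2, rose as well, and its values are given with the inhibitors.

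Mmp3, a stromelysin with a broad range of matrix substrates, was at 7.72, 9.36, 9.26, 9.77 and 8.72 in Control and at 57.3, 75, 63.7, 64.7 and 40.3 in AdCKO (limma log2 fold change 2.59 with an SE of 0.14, adjusted p = 3.41e-08). Mmp28, also called epilysin, was at 40.1, 64.9, 51.3, 33.7 and 42.5 in Control and at 161, 157, 134, 139 and 143 in AdCKO (limma log2 fold change 1.67 with an SE of 0.14, adjusted p = 9.17e-07). For both genes all AdCKO libraries were higher than all Control libraries, with AdCKO 5 lowest for Mmp3 and AdCKO 3 lowest for Mmp28. Mmp23, a short family member without the usual hemopexin domain, rose from 19.3 ± 3.08 to 33.5 ± 4.47 (log2 fold change 0.77, limma adjusted p = 0.000131). Mmp11, a stromelysin that is secreted already active, rose by the same log2 fold change of 0.77 (limma adjusted p = 0.00273), from 18.1 ± 2.73 to 32.2 ± 8.9, but AdCKO 5 at 19.4 lay within the Control range of 14.6 to 20.7.

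Mmp19, a basement membrane protease, was the most abundant metalloproteinase transcript of Control iBAT and did not pass the test. It was at 149.9, 197, 164, 163 and 170.4 in Control and at 138, 172, 122, 218 and 102 in AdCKO (limma log2 fold change -0.21 with an SE of 0.17, adjusted p = 0.297). The AdCKO libraries reached both below and above the Control range, and the exons of Mmp19 overlap those of 1110012D08Rik. Mmp15, a membrane-type member like Mmp14, was at 64.2 ± 8.16 and 50.7 ± 5.55 and also was not called (log2 fold change -0.33, limma adjusted p = 0.0126). The last 8 of the 17 Mmp genes had means under 10 in both groups, among them Mmp9, the gelatinase of neutrophils and macrophages (5.64 and 5.07, overlapping), Mmp13, a collagenase (2.49 and 4.1, overlapping), and Mmp8, the neutrophil collagenase (0.441 and 0.479, overlapping). The others were Mmp10, Mmp17, Mmp24, Mmp25 and Mmp27, with means between 0.686 and 8.7.

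Summed over the 17 Mmp genes, the level was 384 to 522 normalized reads per kb in the Control libraries and 1188 to 1759 in the AdCKO libraries, a ratio of means of 3.14. The make-up of that sum shifted. Mmp19 held 33 to 39.7% of it in Control and 8.61 to 12.4% in AdCKO. Mmp12 went the other way, from 1.17 to 1.67% in Control to 17.9 to 37.4% in AdCKO. Mmp14 held 8.51% on average in Control and 16.6% in AdCKO, and Mmp28 kept a similar part (10.2 and 10.6%).

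**Figure D2:**
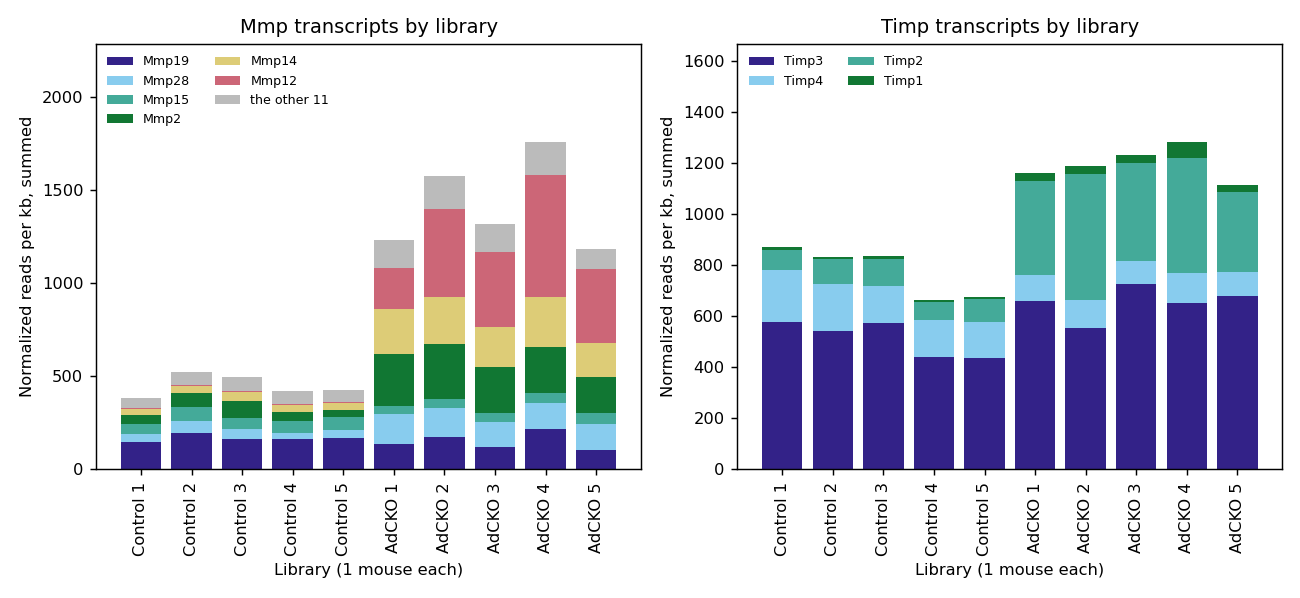
Summed normalized reads per kb of the Mmp genes (left) and the Timp genes (right) in each of the 10 libraries, as stacked bars with 1 mouse per bar. The Mmp12 part of the bar is barely visible in Control and makes up 17.9 to 37.4% of it in AdCKO, and the Timp2 part goes from 9.13 to 12.9% to 28.1 to 41.6%.

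Mmp12 and Mmp3 lie in a tandem array of metalloproteinase genes on chromosome 9 of mm9, all on the plus strand. In order, these are Mmp13 (chr9:7272514-7283333), Mmp12 (chr9:7347374-7360461), Mmp3 (chr9:7445822-7455974), Mmp10 (chr9:7502342-7510242), Mmp8 (chr9:7558429-7568486) and Mmp27 (chr9:7571458-7581393). The neighbours of Mmp12 and Mmp3 stayed at low levels, with Control and AdCKO means of 2.49 and 4.1 for Mmp13, 1.53 and 1.95 for Mmp10, 0.441 and 0.479 for Mmp8 and 2.1 and 3.04 for Mmp27. With no minimum level, limma also called Mmp13 (0.52, adjusted p = 0.0099) and Mmp27 (0.38, adjusted p = 2.93e-05) higher on the log2 scale, but not Mmp10 or Mmp8. Metalloproteinase promoters are known for a site bound by AP-1 factors, so the 250 bases before each deposited transcript start were searched on both strands for TGANTCA. The motif was found for 6 of the 17 Mmp genes (35.3%), for 0 of the other 32 members, and for 696 of all 15075 genes (4.62%). The median GC content of these windows was 55.6% for the Mmp genes, 64.4% for the other members and 59.2% for all genes. The sequences that hold it are shown as the last 100 bases before the start, on the plus strand of mm9, with the motif in capitals.
Mmp13: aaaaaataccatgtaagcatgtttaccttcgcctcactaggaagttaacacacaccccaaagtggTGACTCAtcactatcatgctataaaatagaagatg
Mmp12: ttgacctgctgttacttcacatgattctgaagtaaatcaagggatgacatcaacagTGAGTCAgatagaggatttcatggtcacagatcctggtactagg
Mmp3: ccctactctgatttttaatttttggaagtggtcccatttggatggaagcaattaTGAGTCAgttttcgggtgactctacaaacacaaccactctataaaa
Mmp10: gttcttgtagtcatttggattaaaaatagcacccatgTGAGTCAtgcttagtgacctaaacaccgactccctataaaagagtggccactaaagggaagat
Mmp9: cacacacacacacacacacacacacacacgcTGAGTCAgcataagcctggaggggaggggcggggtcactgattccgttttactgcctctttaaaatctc
Mmp19: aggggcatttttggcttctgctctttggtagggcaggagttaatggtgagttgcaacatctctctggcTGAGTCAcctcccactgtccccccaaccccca
These windows lie at chr9:7272414-7272513, chr9:7347274-7347373, chr9:7445722-7445821, chr9:7502242-7502341, chr2:164773619-164773718 and chr10:128227866-128227965. The motif began 35, 44, 46, 63, 69 and 32 bases before the start, in the same order. Of these 6 genes, Mmp12 and Mmp3 were higher in AdCKO, Mmp19 was not called, and Mmp13, Mmp10 and Mmp9 stayed under a mean of 10. Mmp14, Mmp2 and Mmp28, which were higher, had no match in their window.

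The 4 Timp genes did not move as a block. Timp2 was at 79.3, 95.6, 105, 70.4 and 87.2 normalized reads per kb in Control and at 368, 494, 385, 453 and 313 in AdCKO, with means of 87.4 ± 13.4 and 403 ± 71.6 (limma log2 fold change 2.19 with an SE of 0.13, adjusted p = 6.88e-08). Timp1, the inducible inhibitor, was at 9.28, 9.79, 10.4, 9.75 and 10.4 in Control and at 34.4, 31.5, 31.9, 61.1 and 25.6 in AdCKO (limma log2 fold change 1.73 with an SE of 0.18, adjusted p = 4.7e-06). Both were higher in every AdCKO library, and AdCKO 4 stood above the others for Timp1.

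Timp4 fell. It was at 202, 183, 148, 144 and 144 in Control and at 101, 109.5, 89.7, 116 and 93.7 in AdCKO, so every AdCKO library was lower (limma log2 fold change -0.67 with an SE of 0.11, adjusted p = 0.000195). Timp3, which stays bound to the matrix and also blocks Adam17 and several Adamts enzymes, had the highest level of all 49 members in both groups. Its values were 579, 544, 572, 441 and 435 in Control and 659, 554, 726, 652 and 681 in AdCKO, and AdCKO 2 lay within the Control range. The call for Timp3 was marginal (limma log2 fold change 0.35 with an SE of 0.10, adjusted p = 0.00976) and was lost in 7 of the 10 fits that left out 1 library (adjusted p up to 0.0281). Those 7 left out Control 2, 4 or 5 or AdCKO 1, 3, 4 or 5, and the log2 fold change was then 0.30 to 0.38. The exons of Timp3 also overlap those of Syn3 in the annotation.

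Summed over the 4 genes, Timp transcripts went from 665 to 869 in the Control libraries to 1113 to 1283 in the AdCKO libraries, a ratio of means of 1.54. Timp3 made up 66.2% of the sum on average in Control and 54.8% in AdCKO, Timp2 11.3 and 33.6%, Timp4 21.2 and 8.54%, and Timp1 1.3 and 3.05%. The Timp sum divided by the Mmp sum was 2.26, 1.59, 1.68, 1.57 and 1.58 in the Control libraries and 0.945, 0.753, 0.933, 0.73 and 0.936 in the AdCKO libraries. It was thus above 1 in all Control libraries and below 1 in all AdCKO libraries. Without Mmp12 in the Mmp sum, it was 1.59 to 2.3 in Control and 1.08 to 1.4 in AdCKO, still without overlap but above 1 in every library. These are sums of transcript levels, and the amount of active enzyme or inhibitor was not measured.

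Of the 18 Adamts genes, 7 were tested, and 4 of them were higher, 0 lower and 3 not called. Adamts2, Adamts12 and Adamts15 reached the minimum in AdCKO only, so their direction was fixed, and of the 4 that reached it in both groups 1, Adamts5, was higher (25.6% of all genes tested were higher). Adamts2, which removes the N-terminal propeptide of fibrillar procollagens, was at 8.29, 8.57, 11.1, 6.49 and 6.51 in Control and at 35.6, 39.9, 26, 34.5 and 27.7 in AdCKO (limma log2 fold change 1.88 with an SE of 0.16, adjusted p = 6.53e-07). Adamts15, a protease of versican and other large proteoglycans, was at 5.25, 5.49, 5.47, 4.8 and 6.24 in Control and at 22.2, 29.4, 25.9, 27.7 and 15.2 in AdCKO (limma log2 fold change 1.93 with an SE of 0.16, adjusted p = 6.62e-07). Adamts12 was at 5.48, 6.88, 6.08, 6.38 and 6.62 in Control and at 14.8, 16.5, 14.9, 16.2 and 18.5 in AdCKO (limma log2 fold change 1.24 with an SE of 0.10, adjusted p = 6.07e-07). All 3 were separated between the groups, and AdCKO 5 was the lowest AdCKO library for Adamts15 but the highest for Adamts12. Adamts5, the main aggrecan-cutting protease of cartilage, rose from 12.3 ± 0.953 to 31.1 ± 6.99 (limma log2 fold change 1.24, adjusted p = 7.67e-06).

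Adamts1, a versican protease, was at 26.7, 26.9, 42.4, 76.8 and 39 in Control and at 78.6, 60, 77, 43.2 and 73.9 in AdCKO. Control 4 lay within the AdCKO range while the other Control libraries were all below it, and Adamts1 was not called (limma log2 fold change 0.72 with an SE of 0.26, adjusted p = 0.0297). Without Control 4 it was called higher (0.96, limma adjusted p = 0.00144). It is the neighbour of Adamts5 on chromosome 16 of mm9, with 55042 bases between the genes. Adamts10, a partner of fibrillin microfibrils, was at 50.1, 48.4, 54.4, 43.1 and 50.8 in Control and at 58, 49.7, 53.6, 51.2 and 56.9 in AdCKO, with overlap (log2 fold change 0.12, limma adjusted p = 0.173). Adamts9 was at 48.6 ± 12.2 and 48.1 ± 10.1 (log2 fold change -0.01, limma adjusted p = 0.965), and its exons overlap those of A730049H05Rik and Gm15737.

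Both Adamtsl genes tested were higher, beside 25.6% of all genes tested. Adamtsl4 reached the minimum in AdCKO only, so its direction was fixed, and Adamtsl5 reached it in both groups. Adamtsl5 was at 13.5, 20.1, 16.7, 30.3 and 18.4 in Control and at 74.4, 86.3, 79.2, 76.4 and 65.4 in AdCKO (limma log2 fold change 1.94 with an SE of 0.17, adjusted p = 9.39e-07). Adamtsl4, a microfibril-binding protein, was at 5.86 ± 1.22 and 14 ± 5.05 (log2 fold change 1.07, limma adjusted p = 0.00133). Its AdCKO values fell into a range from 7.96 in AdCKO 5 to 19.9 in AdCKO 2, just above the highest Control value of 7.69. In the 14 members of these families that stayed under 10, the means ran from 0.18 for Adamts16 to 9.58 for Adamtsl3. The member just outside the minimum in AdCKO was Adamts14, a procollagen protease like Adamts2, at 3.18 ± 0.776 in Control and 9.53 ± 1.19 in AdCKO. In Control it was Adamtsl3, at 9.58 against 6.56 in AdCKO, with overlap. Just inside was Adamtsl4. The remaining 12 were Adamts3, Adamts4, Adamts6, Adamts7, Adamts8, Adamts13, Adamts16, Adamts17, Adamts18, Adamts20, Adamtsl1 and Adamtsl2.

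Among the lysyl oxidases, Lox and its paralogs went in opposite directions. Lox, the founding member, was at 53.8, 43.3, 40.7, 35.6 and 36 in Control and at 23.7, 29.7, 25.7, 28.7 and 27.1 in AdCKO, so that no AdCKO library reached the Control range. Its means were 41.9 ± 7.42 and 27 ± 2.39 (limma log2 fold change -0.60 with an SE of 0.11, adjusted p = 0.00052). Loxl2, which acts on collagen of the basement membrane, was at 12.3, 20.9, 19, 23.1 and 16.5 in Control and at 69, 71.2, 61.5, 70.2 and 51.5 in AdCKO (limma log2 fold change 1.78 with an SE of 0.15, adjusted p = 8.25e-07). Loxl1, which is needed for elastic fibres, was at 136, 75.3, 62.1, 149 and 112 in Control and at 224, 219, 192, 208 and 188 in AdCKO (limma log2 fold change 1.02 with an SE of 0.21, adjusted p = 0.000905). Its Control libraries varied over a wider range than its AdCKO libraries, and the groups did not overlap. Loxl3 was at 8.45, 9.05, 8.49, 7.32 and 11.3 in Control and at 19.4, 16.5, 16.2, 18.7 and 12.7 in AdCKO (limma log2 fold change 0.84 with an SE of 0.14, adjusted p = 0.00016), and its exons overlap those of Htra2. Loxl4 stayed low, at means of 1.66 and 3.19. Lox made up 24.4% of the summed Lox family level on average in Control and 8.53% in AdCKO, while Loxl1 remained the main transcript (58.6 and 64.9%) and Loxl2 went from 10.8 to 20.3%.

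**Figure D3:**
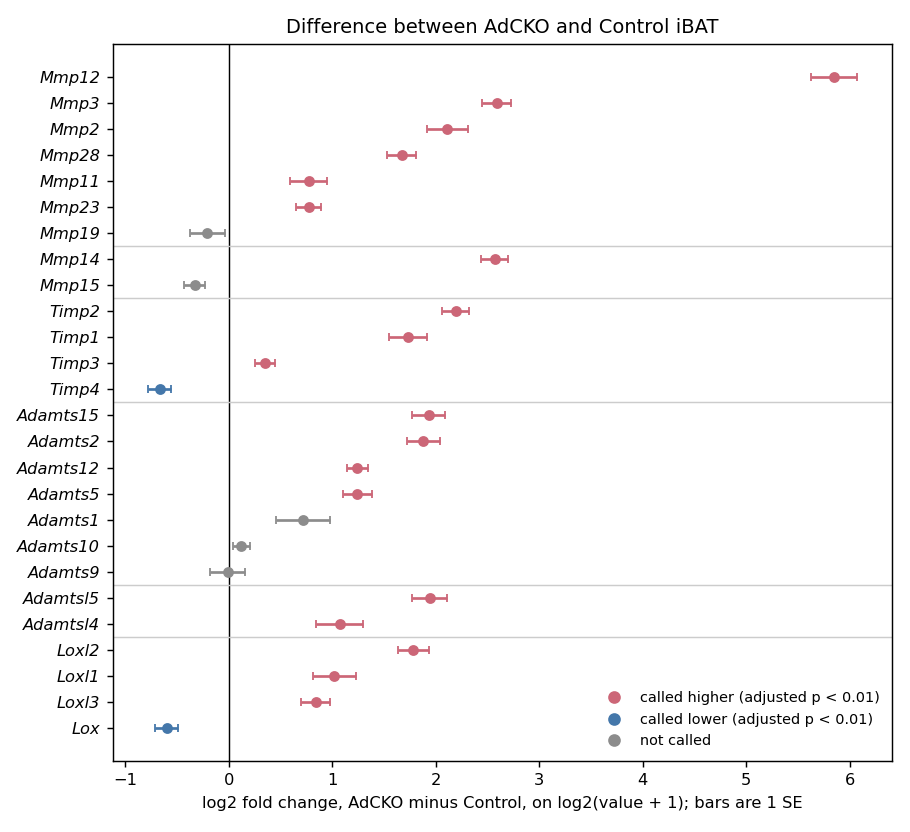
Difference between AdCKO and Control on the log2(value + 1) scale for the 26 members tested, with bars of 1 SE from limma, grouped by family and coloured by call at an adjusted p under 0.01. Mmp12 stands at 5.85 and the next highest, Mmp3, at 2.59, and Timp4 and Lox are the 2 called lower.

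The scaling of the libraries sets where no change lies. The normalized reads summed to between 7615403 and 8171138 in Control and between 5419800 and 5843024 in AdCKO. Scaling every library to an equal total moved the median over the genes tested from -0.01 to 0.47 on the log2 scale. Under that scaling, Timp4 was at -0.19 and Lox at -0.14 and neither was called, Mmp15, Mmp19 and Adamts9 turned positive, and Adamts1 (1.19) and Adamts10 (0.60) were called higher. Over all genes tested, 61.4% were then higher and 9.57% lower. Equal totals multiply all genes of a library by the same factor, which leaves their order within the library unchanged. That Timp4 and Lox lay below the median of all genes under both scalings is therefore not a separate test. Mmp12, Mmp14, Mmp2, Mmp3, Mmp28, Timp1 and Timp2 were higher under every alternative in which they were tested.

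The AdCKO libraries were not equal among themselves. Of the 19 members called higher, 13 had their lowest AdCKO value in AdCKO 5, and 10 had their highest in AdCKO 2. Skeletal muscle transcripts were found in 3 AdCKO libraries: the summed level of 10 muscle markers was 7105 in AdCKO 1, 26875 in AdCKO 2 and 10161 in AdCKO 4, against 153 in AdCKO 3, 139 in AdCKO 5 and 106 to 137 in Control. With only AdCKO 3 and AdCKO 5 set against the 5 Control libraries, 15 of the 25 members tested were higher and 3 lower. Over all genes tested in that fit, 18.8% were higher and 19.7% lower. Mmp12 was then at 5.82, Timp2 at 1.99, Mmp14 at 2.35, Lox at -0.63 and Timp4 at -0.82, all still called (limma adjusted p from 5.42e-10 to 0.0066). Mmp11 (0.43, adjusted p = 0.0819), Loxl1 (0.90, adjusted p = 0.0223) and Timp3 (0.46, adjusted p = 0.0147) were no longer called, and Adamtsl4 missed the minimum level. Mmp19 was called lower in that fit (-0.58, limma adjusted p = 0.0023), since its 2 AdCKO values of 122 and 102 were the lowest of all 10 libraries.

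Genes that work with these families or are cut by them were described from 8 lists that together hold 106 genes, of which 80 were tested. In AdCKO iBAT, 65 of these were higher, 7 lower and 8 not called, with a median log2 fold change of 1.10, beside 25.6% higher and 28.0% lower over all genes tested. Of the 80, 16 reached a mean of 10 in AdCKO only, which fixed their direction, and of the 64 that reached it in both groups 51 were higher, 7 lower and 6 not called. None of these 106 genes is a member of the families above.

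Among proteases at the cell surface and in the pericellular space, 7 of the 9 Adam genes tested were higher, 1 was lower and 1 was not called. Adam8, Adam23 and Adam33 reached the minimum in AdCKO only, and of the other 6 Adam genes 4 were higher. Adam8, a protease of myeloid cells, rose most in its list, from 7.18 ± 1.09 to 118 ± 40.7 (log2 fold change 3.79, limma adjusted p = 5.21e-08). Adam23 and Adam19 rose by 1.63 each, and Adam15 by 0.88. Adam9 was the member called lower (-0.26, limma adjusted p = 0.00684), with overlap between the groups. All 3 tested genes of the tolloid group, which removes the C-terminal propeptide of procollagens, were higher: the enhancer Pcolce by 2.46 (162 ± 23.6 to 888 ± 48.4, limma adjusted p = 3.59e-09), the protease Bmp1 by 1.61 and the enhancer Pcolce2 by 0.63. Adamts2, the N-terminal counterpart, was higher as well, as given above.

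In the plasminogen system, whose product plasmin can activate several Mmp proenzymes, 5 of 6 genes were higher and 0 lower (4 of the 5 with the minimum met in both groups were higher). The urokinase receptor Plaur rose by 1.83 on the log2 scale (limma adjusted p = 1.93e-07), urokinase itself (Plau) by 1.28 and tissue plasminogen activator (Plat) by 0.75. A list of other inhibitors and activators was split, with 4 higher, 4 lower and 1 not called, and of the 6 that reached the minimum in both groups 2 were higher and 4 lower. The proteases Htra3 (1.16), Fap (1.10) and Htra1 (0.87) and the membrane-anchored Mmp inhibitor Reck (0.59) were higher. Furin, the convertase that cuts the prodomain of Mmp14, Mmp11 and many Adamts enzymes, fell from 285 ± 33.5 to 157 ± 8.06 (log2 fold change -0.85, limma adjusted p = 2.65e-06). Its relative Pcsk6 was lower too (-1.32, limma adjusted p = 7.64e-06), as were Bsg (-0.61), an inducer of Mmp expression, and Cst3 (-0.47), an inhibitor of cysteine proteases.

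The substrates mostly moved with the enzymes. All 12 fibrillar and basement membrane collagen genes in the list were higher, from 1.22 for Col4a2 to 3.36 for Col1a1 (65.7 ± 8.46 to 683 ± 70.3, limma adjusted p = 4.38e-10). Of the 14 proteoglycan and adhesive genes, 12 were higher (8 of the 9 that reached the minimum in both groups), among them Nid2 (1.31), the osteopontin gene Spp1 (2.79), Lum (2.39) and Bgn (1.88), and the pericyte proteoglycan Cspg4 was lower (-0.55). Of the 16 genes of elastic fibres and microfibrils, 14 were higher (10 of the 12 that reached it in both groups), including Efemp2 (1.05), Mfap2 (1.29), Fbn1 (1.62) and Emilin1 (1.62). Ltbp2 went against this list, from 209 ± 24.3 to 37.3 ± 11.5 (log2 fold change -2.50, limma adjusted p = 1.79e-07). In the list of collagen hydroxylases, chaperones and crosslinking enzymes, 8 of 11 were higher and 0 lower. The 4 with the smallest p were P4hb (1.21), Glt25d1 (0.81), Lepre1 (0.83) and Plod2 (0.87).

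Markers of the cell types of the tissue were read in the same libraries. All 11 macrophage markers were higher in AdCKO, beside 25.6% of all genes tested. Itgam and Fcgr1 reached the minimum in AdCKO only, which fixed their direction, and all 9 that reached it in both groups were higher. The summed level of the 11 markers was 506 to 1302 in Control and 6190.4 to 8354 in AdCKO. Among them, Lyz2 was at 469 ± 265 and 5196 ± 849 and Cd68 at 59.3 ± 27.5 and 977 ± 199. Control 3 had the highest macrophage sum of its group, at 1302, where the other Control libraries had 506 to 833, and Mmp12 was at 6.62 there and at 5.24 to 6.43 in the others. Within AdCKO the macrophage sum was 6190.4, 8354, 6533, 8302 and 6221, and Mmp12 was at 220.0, 474, 402, 657 and 395. Of the 10 fibroblast markers, 9 were higher, and the sum of the list was 1332 to 1768 in Control and 4749 to 7428 in AdCKO. Fap reached the minimum in AdCKO only, and of the 9 fibroblast markers that reached it in both groups 8 were higher. AdCKO 5, the library with the lowest values for 13 of the 19 members called higher, also had the lowest fibroblast sum. It had the highest sum of brown adipocyte markers among the AdCKO libraries too (36741). AdCKO 1 had the highest fibroblast sum (7428) but the highest AdCKO value for only 3 of the 19. Col1a1, Col3a1, Dcn, Lum and Fap stand in both the fibroblast list and the matrix lists. The part of macrophage and fibroblast RNA in the members' levels was not tested.

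**Figure D4:**
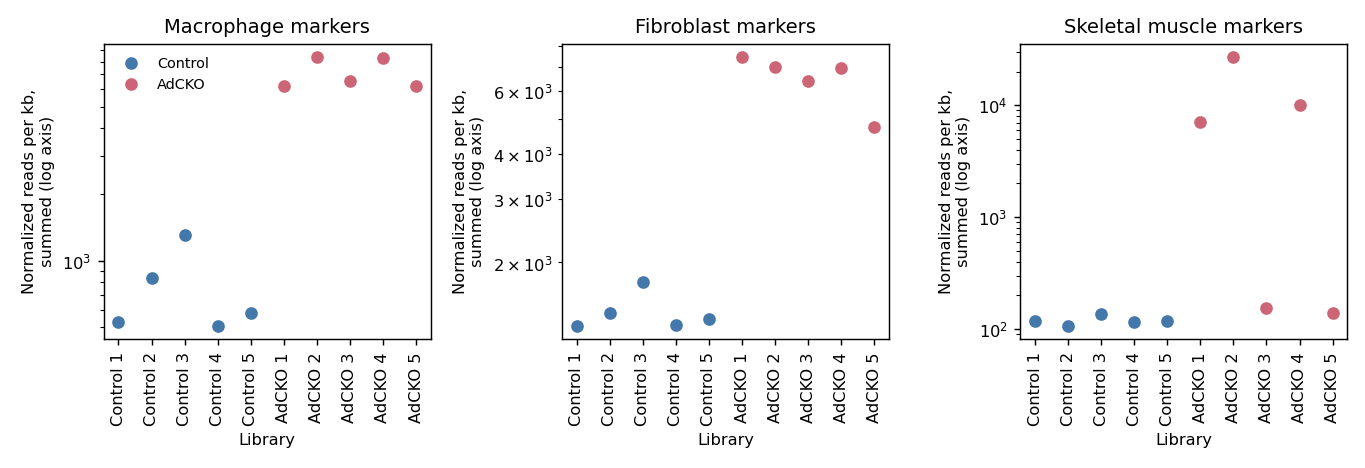
Summed normalized reads per kb (log axes) of the macrophage, fibroblast and skeletal muscle marker lists, with 1 point for each of the 5 Control and 5 AdCKO libraries. The macrophage and fibroblast sums are higher in every AdCKO library, whereas the muscle sum is high in AdCKO 1, 2 and 4 only.

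Other cell types moved less or the other way. Beside the counts below, 25.6% of all genes tested were higher and 28.0% lower. The adipocyte list had 5 of 8 markers lower, with sums of 168667 to 202219 in Control and 118898 to 141254 in AdCKO. The brown adipocyte list had 5 of 8 lower and 1 higher, with log2 fold changes from -1.63 to 2.24. Its sums were 51214 to 75577 in Control and 16427 to 36741 in AdCKO. Ucp1, the uncoupling protein that defines these cells, was at 36912 ± 8713 and 14069 ± 4478. Adipocyte markers were thus by far the most abundant in both groups, as the tissue label says. Of 8 endothelial markers 3 were higher and 5 were not called, and of 8 mural and smooth muscle markers 5 were higher and 2 lower (Rgs5 at -0.89 and Cspg4 at -0.55). The nerve and Schwann cell list had 4 of 5 higher and S100b lower (-1.41). The lymphoid list had 2 of 4 higher, with a sum of 235 in AdCKO 1 and 55.5 to 84 in the other AdCKO libraries. Of these 4, Cd3e, Cd4 and Cd79a reached the minimum in AdCKO only, which fixed their direction. Nkg7 reached the minimum in both groups and was higher. No neutrophil marker reached the minimum level, with sums of 5.13 to 5.37 in Control and 5.19 to 6.11 in AdCKO, and the neutrophil collagenase Mmp8 was likewise near the bottom of the table. Their part in the results was not tested.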

How the data were processed

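The authors isolated polyadenylated RNA, used STAR to align reads to mm9, took reads over exons from iRNA-seq and scaled them by DESeq2 (versions not given in the sources used here). The deposited signal values are normalized reads per kb for 1 RefSeq transcript per gene. They are not counts: no value is 0, and only 22.4 to 23.7% of low values lay within 0.1 of a whole read, where chance gives 20%. Depth is therefore unknown, and the spread of 5 mice per group is the only error available. For low genes this spread is smaller than counting error, so their SEs and p-values are too small. The authors' own fold changes, adjusted p-values and lists of changed genes, deposited alongside, were not used.

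AdCKO and Control were compared by limma 3.58.1 under R 4.3.3 (intensity trend, two-sided, Benjamini-Hochberg over 11244 genes, threshold 0.01), on log2(value + 1), a scale that understates changes of low genes. The script was tested on simulated data. Members and lists were chosen with earlier results of these data known. Values in every library are given, per family, for the 4 members with the smallest p, the 2 with the highest mean and any called member against its family's majority, with Mmp2 by its range. Related lists name at most 4 called members by p and those against the majority, and marker lists at most 3 by level. Promoters were read from NCBIM37 (mm9) before each deposited start. A planned search of protein motifs was not run, and Lox promoter sequence is not used here. Replicate numbers did not pair the mice (correlations of deviations from -0.268 to 0.098). Exon overlaps are from GENCODE; whether counting used strand is not given in the sources used here. Alternatives were pseudocounts of 0.1 and 10, no minimum or a minimum of 50, equal totals, quantile normalization, no or a robust trend, a threshold of 0.05, a replicate block and each library left out. The fit with only the AdCKO libraries low in muscle markers was chosen after seeing the data.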

Additional observations from a re-analysis of the deposited data

Results flagged for a closer look

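Within 1 group of 5 libraries, a library stood apart from the other 4 in 3 of the 52 groups of member values tested with Dixon's test, which chance flags about 1 time in 20. Timp1 was at 61.1 normalized reads per kb in AdCKO 4, against 25.6 to 34.4 in the other AdCKO libraries, and that library also had the highest Mmp12 value. Adamts9 was at 69.5 in Control 4, against 38.9 to 47.6 in the other Control libraries, and Adamts1 was highest among Control in the same library. Adamts5 was at 10.7 in Control 2, against 12.6 to 13 in the others.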

How the results depend on the processing

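Of the 26 members tested, 16 kept their direction and call under every alternative in which they were tested. With a mean of at least 50 required, fewer genes were tested, and 10 of the 15 members tested were higher and 1 lower. Over all genes tested there, 23.2% were higher and 35.8% lower. Scaled to the same total, 24 members were higher and 0 lower (21 of the 26, and Adamts7, Adamts14 and Mmp17, which newly reached the minimum), where 61.4% of all genes were higher and 9.57% lower. With quantile normalization 18 were higher and 4 lower (3 of the 26, and Adamtsl3, which newly reached the minimum). In that setting 22.2% of all genes were higher and 31.9% lower. The cause was not tested. Under equal totals Adamts9 turned to 0.46, Mmp15 to 0.14 and Mmp19 to 0.27 (log2 fold change). Adamts9 was also positive with only the AdCKO libraries low in muscle markers (0.28), and lay between -0.08 and 0.13 when single libraries were left out: it was 0.13 without Control replicate 4, 0.09 without AdCKO replicate 1 and 0.05 without AdCKO replicate 4. With each library left out, 18 to 19 members were higher and 2 to 3 lower, against 23.5 to 25.6% and 25.6 to 27.2% of all genes tested. With the replicate number as a block, 18 were higher and 3 lower, as Timp3 was lost (adjusted p = 0.017) and Mmp15 gained (adjusted p = 0.00911), and 70 in place of 72 related genes were called. The replicate block changed no other member's call, and over all genes tested 23.1% were then higher and 25.2% lower. Of the related genes, 51 to 78 were called over the alternatives. Depth is unknown, so the values do not tell which low genes rest on few reads.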
